A study of Mus musculus with 54 samples.

Results

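The 9 genes described here encode receptors for extracellular nucleotides and adenosine, and the enzyme CD39 that lies between the 2 groups of ligands. They were chosen by symbol: the ATP-gated channels P2rx4 and P2rx7, the G protein-coupled nucleotide receptors P2ry2, P2ry6 and P2ry14, the adenosine receptors Adora2a, Adora2b and Adora3, and Entpd1, which encodes CD39. All 9 of 9 were among the 16632 genes listed in the count table and all 9 passed the filter on low counts that left 13169 genes for testing. Adora2a passed it only through cells given aSyn, which hold all 8 of its units with 10 or more counts, and Adora3 through 6 units.

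The samples were 54 libraries of microglia, the resident macrophages of the brain, cultured from C57BL/6 mice and sequenced from the 3′ ends of their transcripts. Donor cells had received 1 µM alpha-synuclein (aSyn), the protein that aggregates in Parkinson's disease, carrying an Atto-488 label, for 14 h. Acceptor cells had received no aSyn and carried a violet cell dye, and both populations had been mixed, co-cultured for 15, 30, 60, 150 or 300 min and sorted apart by flow cytometry. The groups were untreated cells (6 libraries), aSyn-treated cells without co-culture (4 libraries), and donors and acceptors at each time (3 or 4 libraries each), with a group at 0 min that the protocol does not describe. The cells of all 14 groups came from brains of neonatal mice, 2 to a flask, and were shaken off an astrocyte layer after 7 to 10 days in culture. Whether the untreated and the aSyn-treated cells were also sorted is not said in the labels. Titles number the libraries 1 to 4, called experiments here, and libraries of one experiment departed jointly from the means of their groups. Untreated libraries 2 and 4 occur in pairs that were summed, which leaves 52 units. Nothing in the labels says that experiments came from separate animals, so p-values measure the spread between these samples, which may be technical.

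ATP and UTP leave stressed, damaged or active cells and act on P2X channels, which admit calcium and sodium, and on P2Y receptors, which signal through G proteins. Ectoenzymes break these nucleotides down: CD39 removes phosphates from ATP and ADP, and CD73 turns AMP into adenosine. Adenosine then acts on its own receptors, of which those encoded by Adora2a and Adora2b raise cyclic AMP and that of Adora3 lowers it. In microglia, nucleotide receptors are known for guiding process movement towards injury, phagocytosis and the release of interleukin-1 beta, and adenosine receptors for modulating inflammatory responses.

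Total counts were between 7807389 and 15537493 per library. The limit below which a level is not read here is 3 counts. Relative to the unscaled totals of the 54 libraries, this limit corresponds to between 0.193 and 0.384 CPM. All other CPM given here are counts relative to the TMM-scaled library total of a unit. In a unit the limit can lie outside that range: 11 counts of Adora2b were 0.415 CPM in untreated cells of experiment 4. All 8 microglial markers searched (among them Csf1r and Cx3cr1) were present and together reached 2527 to 6959 CPM. No counts were listed for Cd3e and Cd3g of T cells and Cldn5 of endothelium. Markers of oligodendrocytes summed to 54.4 to 451 CPM, of astrocytes to 3.22 to 131 CPM, of neurons to 0.0837 to 4.97 CPM and of fibroblasts to 0 to 19.4 CPM, with the highest oligodendrocyte, astrocyte and neuron sums in untreated cells. Experiment 4 carried library identifiers from a separate number range, and ribosomal precursor RNA (Rn45s) took 18.2% of its counts on average against 6.6% in the other 3 experiments. In bulk samples, fewer cells of a type and less RNA per cell cannot be told apart.

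The stretches before the first annotated base of Adora2b and P2rx4 are shown because of the tests of donors against acceptors given further on. Adora2b was called higher in donors at 15 min. P2rx4 was called higher only with the experiment number as a block, at 15 and 30 min. Each of these P2rx4 calls was lost when some single experiments were left out. They are from the mouse build GRCm38.p6 of RefSeq, on the plus strand, at chr11:62248734-62248983 and chr5:122707294-122707517, and 7 of the 9 members had an entry. Capitals mark matches to the motifs searched on both strands: in Adora2b the GC box GGGCGG, which appears as CCGCCC on the other strand, and in P2rx4 the cyclic AMP response element half-site TGACG, which appears as CGTCA.
Adora2b: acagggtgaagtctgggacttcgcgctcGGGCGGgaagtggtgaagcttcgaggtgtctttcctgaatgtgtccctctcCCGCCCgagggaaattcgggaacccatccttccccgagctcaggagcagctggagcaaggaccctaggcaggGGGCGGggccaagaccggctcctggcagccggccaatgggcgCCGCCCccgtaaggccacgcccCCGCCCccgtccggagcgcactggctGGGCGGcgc
P2rx4: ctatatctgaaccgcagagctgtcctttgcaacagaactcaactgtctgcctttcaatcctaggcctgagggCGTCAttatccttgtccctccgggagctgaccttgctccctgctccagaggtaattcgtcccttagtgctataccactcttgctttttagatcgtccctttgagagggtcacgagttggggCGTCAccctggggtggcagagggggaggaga
The Adora2b stretch held 6 GC boxes and no half-site. At least 1 GC box was found in 32.7% of all 32851 promoter stretches of that length. The P2rx4 stretch held 2 half-sites and no GC box, and 15.2% of stretches of its length held a half-site. Neither stretch held the letters of AP-1 (TGANTCA), of the hypoxia element core (ACGTG) or of the NF-kB motif, which stood in 6.75%, 16.6% and 7.25% of stretches of the Adora2b length. No motif overlapped another in either stretch, and these matches describe letters, not bound sites.

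Levels are not compared between genes, and each member is set against itself. The fold changes below are on the log2 scale from edgeR's quasi-likelihood test over all 14 groups, with a Benjamini-Hochberg adjusted p under 0.05 as the call. Since the libraries of one experiment departed jointly, the value of the same test with the experiment number as a block is printed wherever it changes a call. Over 171 tests (9 members in 19 pairwise comparisons), 1 was called (0.585%), 11 were called with the block (6.43%) and 16 had an unadjusted p under 0.05. Over all genes in the same 19 comparisons, 0.285% of tests were called, 3.87% with the block, and 6.48% had an unadjusted p under 0.05. Of the 11 blocked calls 3 are of Adora2a, whose passage of the filter rests on the cells where it is high, so they are not read as results. The 19 comparisons share groups: untreated cells stand in 7 of them, as do aSyn-treated cells, and each donor or acceptor group in 2, so calls in them are not independent.

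Adora2b, the adenosine receptor of low affinity, gave the only call without the block. It was higher in donors than in acceptors after 15 min of co-culture. In experiments 1 to 4 the donors were at 2.89, 4.44, 6.15 and 1.90 CPM and the acceptors at 0.376, 0.645, 0.983 and 0.172 CPM. No acceptor library reached any donor library, and each donor was above the acceptor of its own experiment. The log2 fold change was 2.79 (standard error 0.63, edgeR adjusted p = 0.0161), and 2.84 with the block (adjusted p = 4.82e-04). Of all genes tested, 0.888% were called in this comparison, and 9.57% with the block. The acceptor values rest on 2 to 14 counts a library, that of experiment 4 being below the 3-count limit. Without the block, leaving out experiment 1, 2 or 3 ended the call (adjusted p 0.106, 0.148 and 0.0524) while the fold change stayed between 2.78 and 2.98. A fit of only the groups compared also ended it (adjusted p = 0.117). Leaving out 1 experiment with the block, an alternative chosen after seeing the data, kept the call each time (edgeR adjusted p 7.19e-05 to 0.012). In those blocked fits 2.8% to 5.87% of all gene tests were called over the donor-acceptor comparisons together.

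The same direction was found at every time. Donors were above acceptors of their own experiment in 21 of 21 same-numbered pairs, with a median log2 CPM difference of 1.47. The lowest difference in experiments 1 to 4 was 0.07, 0.91, 0.34 and 0.30. Here and below, the 21 pairs are 5 or 6 times from each of 4 experiments, so they are not independent. At 0 min the donors were at 2.10, 3.88 and 8.34 CPM (experiments 1 to 3) and the acceptors at 0.862, 0.725 and 0.751 CPM. Here too the ranges were apart, with a log2 fold change of 2.61 (standard error 0.70, edgeR adjusted p = 0.115). With the block it was 2.47 (adjusted p = 0.00931), against a background of 0.251% of genes called without the block and 4.28% with it. At 30 min the donors were at 3.17, 4.57, 8.46 and 2.92 CPM and the acceptors at 1.08, 1.27, 1.68 and 0.648 CPM. Every donor exceeded every acceptor, and the log2 fold change was 2.03 (SE 0.59, adjusted p = 0.0984). With the block it was 1.95 (adjusted p = 0.00609), where 0.805% of genes were called without the block and 10.8% with it. Without experiment 3 the blocked adjusted p was 0.333 at 0 min and 0.0774 at 30 min, and at 0 min it was 0.0988 without experiment 2.

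At later times the difference was smaller, and it was called neither without nor with the block. Donors were at 5.84, 8.80 and 2.19 CPM at 60 min (experiments 1, 3 and 4), against acceptors at 1.20, 1.22, 4.84 and 1.76 CPM, a log2 fold change of 1.31 (standard error 0.60, edgeR adjusted p = 0.446). With the block this became 1.42 (adjusted p = 0.0652). Without experiment 4 as well, a fit chosen after seeing the data, it was 1.76 and called (adjusted p = 0.00658, 4.5% of genes called). Without experiment 1, 2 or 3 the blocked test did not call it. At 150 min the donors were at 1.76, 3.38, 7.29 and 8.98 CPM and the acceptors at 1.66, 1.72, 5.71 and 7.19 CPM, a log2 fold change of 0.39 (SE 0.55, adjusted p = 0.921). In both populations at 150 min, experiments 3 and 4 were high and 1 and 2 low. At 300 min the log2 fold change was 0.86 (SE 0.64, adjusted p = 0.917), with donors at 1.25, 3.12, 1.69 and 3.53 CPM and acceptors at 1.07, 1.03 and 1.84 CPM (experiments 1, 2 and 4). Background shares at these 3 times were 0.418%, 0.167% and 0.0304% of genes without the block, and 6.7%, 5.19% and 1.38% with it. The test of a change in the donor-acceptor difference over time called no member in edgeR, with or without the block, or in DESeq2. Adora2b (unadjusted p = 0.0411, adjusted p = 1) was 1 of 2 members with an unadjusted p under 0.05, beside 0.858% of all genes. Of all genes, 0% were called without the block and 0.0456% with it.

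**Figure D1:**
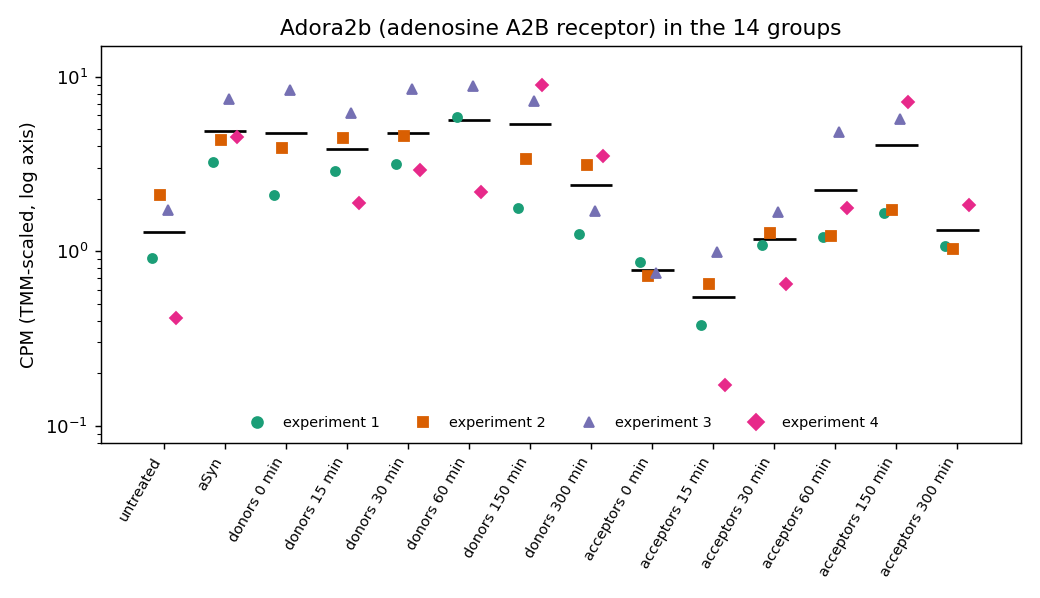
Adora2b level (CPM on TMM-scaled library sizes, logarithmic axis) in each of the 52 units, by group; colours and shapes mark experiments 1 to 4 and black lines the group means. Donor groups lie above the acceptor group of the same time at 0, 15 and 30 min without overlap, and in acceptors the highest mean is at 150 min.

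Within the acceptors, Adora2b varied with co-culture time. Group means were 0.779, 0.544, 1.17, 2.25, 4.07 and 1.31 CPM at 0, 15, 30, 60, 150 and 300 min, and 150 min held the highest acceptor value of each of the 4 experiments. The test over the 6 acceptor groups did not pass (edgeR adjusted p = 0.343), passed with the block (adjusted p = 0.0377) and passed in DESeq2 (adjusted p = 0.00634, 0.258% of genes called). In this test 0.00759% of all genes, that is 1 gene, were called without the block and 0.137% with it. Without any one experiment the blocked test missed the threshold, with adjusted p between 0.0785 and 0.731. Against untreated cells, acceptors at 150 min had a log2 fold change of 1.66 (standard error 0.58, edgeR adjusted p = 0.323), and 1.63 with the block (adjusted p = 0.037), beside 0.137% and 4.78% of all genes called. In the same comparison 2 of 4 oligodendrocyte markers, Mbp among them, and 1 of 6 astrocyte markers, S100b, were lower with the block. Without the block 1 of the 4 oligodendrocyte markers was called. The part of these markers in the Adora2b result was not tested. In experiment 2 the acceptor (1.72 CPM) was below the untreated value (2.09 CPM), and without experiment 4 the blocked log2 fold change was 0.77 (adjusted p = 0.309). The blocked call was also lost without experiment 1 (adjusted p = 0.0938) or 3 (0.181). No other of the 54 tests of members in acceptors against untreated cells was called with or without the block. In order of time, 0%, 0%, 0.114%, 0.0683%, 0.137% and 0% of all genes were called without the block and 0.995%, 2.25%, 3.6%, 4%, 4.78% and 0.623% with it. DESeq2 called none of the members (0.275% of all gene tests). Of the 54 tests, 3 had an unadjusted p under 0.05, beside 6.78% of all gene tests.

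aSyn alone was set against no treatment in cells that were not co-cultured. No member was called without the block. An unadjusted p under 0.05 was found for 2 members, beside 17.1% of all genes. DESeq2 called 1 (Adora2b), and the block called Adora2b and P2rx4, both higher with aSyn. The block also called Adora2a, which is described further on without a test. Adora2b was at 0.908, 2.09, 1.71 and 0.415 CPM in untreated cells of experiments 1 to 4 and at 3.24, 4.34, 7.40 and 4.54 CPM in aSyn-treated cells. All 4 treated units were above all 4 untreated ones. The log2 fold change was 1.92 (SE 0.58) and missed the threshold (edgeR adjusted p = 0.0642), and with the block it was 1.90 (adjusted p = 0.00349). The blocked test called it in each of the 4 fits without one experiment (adjusted p 0.00475 to 0.0455), and DESeq2 called it without a block (adjusted p = 0.0249, 4.5% of genes called). Of all genes, 2.5% were called in this comparison without the block and 19.2% with it, so a blocked call was common here. Astrocyte markers differed in the same comparison: their sum was 5.45, 9.46, 71.6 and 131 CPM in untreated cells and 8.18, 4.90, 10.6 and 27.1 CPM in aSyn-treated cells, with 5 of 6 lower with the block. Oligodendrocyte markers summed to a median of 148 CPM in untreated and 129 CPM in aSyn-treated cells, and 1 of 4 was called lower with the block. The endothelial list (Pecam1 alone) was at 0 to 0.566 against 1.03 to 2.44 CPM, and Pecam1 was called higher with and without the block. With the block 5 of 8 microglial markers were called, 2 higher and 3 lower. Their part in the member results of this comparison was not tested. In donors against acceptors 0 of 6 astrocyte markers were called at any time, with or without the block. Pecam1, at 0.515 to 3.06 CPM in donors and 0 to 1.42 CPM in acceptors, was called higher in donors at 15 min (edgeR adjusted p = 0.0351, blocked 0.0032) and 30 min (0.0107, blocked 8.06e-04), in both fits. Of the 8 microglial markers 2, 2, 2, 1, 1 and 0 were called at 0, 15, 30, 60, 150 and 300 min with the block and 0 without it, and 1 of these calls, at 15 min, was lower in donors. The part of these markers in the donor-acceptor results was not tested.

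Co-cultured donors were also compared with aSyn-treated cells kept alone. No member was called in any of the 54 tests, with or without the block, and DESeq2 called none. None had an unadjusted p under 0.05, beside 1.75% of all gene tests. In 5 of these 6 comparisons 0% of genes were called in either fit, and at 300 min 0.0304% without and 0.304% with the block. The lowest p was that of Adora2b at 300 min, with a log2 fold change of -1.02 (SE 0.56, unadjusted p = 0.0769, edgeR adjusted p = 1), the donors being below the aSyn-treated cells in all 4 experiments. The tests over the 6 donor times called no member either, with or without the block or in DESeq2. None had an unadjusted p under 0.05, beside 1.88% of all genes. In these tests 0.0607% of genes were called without the block and 0.577% with it.

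Of the variance of log2 CPM of Adora2b over the 52 units, 66.7% lay between groups and 12.2% between experiments, against medians of 23.7% and 32.9% over all genes tested. For the 3 members with the widest range of group means, the genes with the most similar pattern were sought over the 14 group means after removal of experiment means. For Adora2b they were Il7r (Pearson r = 0.959), the interleukin-7 receptor, Jdp2 (0.956), a transcription factor of the AP-1 family, and Ly6a (0.943), the surface antigen Sca-1. For Adora2a they were F10, Gsr and Mmp19 (r = 0.947, 0.944 and 0.933), and for Adora3 they were Slc25a38, Amd2 and Pdcd1lg2 (r = 0.869, 0.834 and 0.833). Adora2a and Adora3 had no count in 26 and 39 of the 52 units, so their ranges and coefficients rest on levels near 0. Adora2a also passed the filter on low counts only through cells given aSyn. No likeness is therefore read from the coefficients of these genes. The 14 means come from the same libraries for every gene, and these coefficients describe likeness only.

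Adora2a, the gene of an adenosine receptor of high affinity, was near or at 0 in most libraries and highest in aSyn-treated cells and donors of experiment 4. Donors of experiment 3 held 14 counts at 0 min (1.01 CPM) and at 30 min (0.995 CPM). Untreated cells had no count in any experiment. aSyn-treated cells were at 0.0737, 0.0711, 0.0795 and 4.02 CPM, the first 3 values being 1 count each and the last 46 counts. Donors at 15 min were at 0.0876, 0.141, 0.0798 and 3.17 CPM and acceptors at 15 and 30 min had no counts. Over the 22 donor units the counts ran from 0 to 67, and over the 22 acceptor units from 0 to 7, with 16 acceptor units at 0. On the group means, aSyn-treated cells were at least 5.27-fold higher than the 3-count limit of untreated cells, and donors at least 3.06-fold and 3.14-fold higher than that of acceptors at 15 and 30 min. These bounds come from experiment 4, or from experiments 3 and 4 at 30 min, and do not hold in the others. No test is given for these differences, because the filter on low counts was passed only through cells given aSyn.

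Adora3 had no count in 39 of the 52 units and between 4 and 21 counts in the other 13. The units with counts were scattered, 2 of 4 aSyn-treated, 7 of 22 donors and 4 of 22 acceptors, with no untreated unit among them. No comparison called it in any setting tried. The gene lies on the same strand as Tmigd3, whose level was 0.533 to 12.4 CPM, and how the counting treated the shared part is not given in the sources used here, so which gene its counts belong to is uncertain.

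P2rx4, a channel that opens at low ATP levels and sits largely in lysosomes, had 1307 to 6346 counts in every unit. Untreated cells were at 164.6, 276.8, 199.7 and 132.8 CPM in experiments 1 to 4 and aSyn-treated cells at 245.4, 294.0, 216.9 and 240.9 CPM. The ranges overlapped through experiment 2, but each treated unit was above its untreated partner. The log2 fold change was 0.37 (standard error 0.19, edgeR adjusted p = 0.327), and 0.40 with the block (SE 0.13, adjusted p = 0.0274). This blocked call was lost without experiment 4 (0.27, adjusted p = 0.235) and without experiment 1 (0.36, adjusted p = 0.127).

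All 26 units of cells given aSyn, alone or as donors, lay between 216.9 and 300.2 CPM for P2rx4, and the 26 units not given aSyn between 132.8 and 276.8 CPM. At 15 min the donors were at 272.8, 299.6, 229.2 and 241.5 CPM and the acceptors of experiments 1, 2 and 4 at 153.2, 207.8 and 160.2 CPM. The acceptor of experiment 3 was the highest of its group and alone reached the donors, lying above the donor of its own experiment. At 30 min they were at 260.6, 280.5, 222.6 and 250.6 CPM against 155.7, 221.1, 213.5 and 133.7 CPM, with no overlap. The log2 fold changes were 0.47 (standard error 0.19, edgeR adjusted p = 0.308) at 15 min and 0.49 (SE 0.19, adjusted p = 0.281) at 30 min. With the block they were 0.48 (adjusted p = 0.0167) and 0.51 (adjusted p = 0.00898), and at the other 4 times the blocked test missed the threshold (adjusted p 0.058 to 0.135). The 15 min call was lost with the block without experiment 1 (0.158) or 2 (0.104), and the 30 min call without 1 (0.0881) or 4 (0.086).

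The size of this difference varied between experiments. Donors were above acceptors at 6 of 6 times in experiment 1 (median log2 difference 0.74), 5 of 5 in experiment 2 (0.35) and 5 of 5 in experiment 4 (0.59), but at 2 of 5 times in experiment 3 (-0.02). Without experiment 3, a fit chosen after seeing the data, the blocked log2 fold changes at 15 and 30 min were 0.66 and 0.67 (edgeR adjusted p = 0.0023 and 0.00224). Over the 6 times together, 3.21% of all gene tests were called in that fit. Experiment 3 had the lowest P2rx4 level of its group among aSyn-treated cells and among donors at 0, 15, 30, 60 and 150 min, and the highest among acceptors at 15 min.

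**Figure D2:**
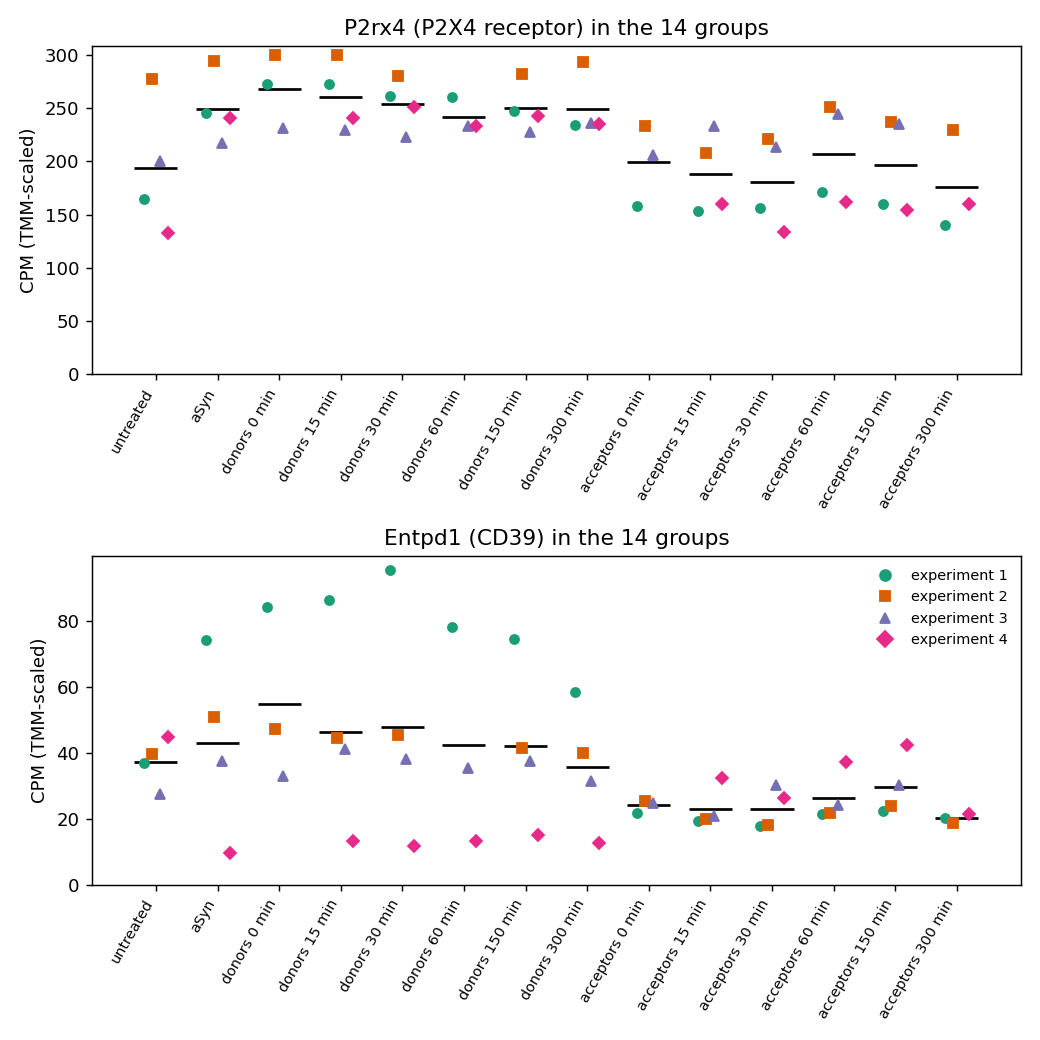
Levels of P2rx4 (upper panel) and Entpd1 (lower panel) in CPM on TMM-scaled library sizes in each of the 52 units, by group; colours and shapes mark the experiments and black lines the group means. P2rx4 lies between 216.9 and 300.2 CPM in all units given aSyn, and the Entpd1 values of experiment 4 are the lowest in aSyn-treated cells and donors and above 20 CPM in its acceptors.

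P2rx7, the channel that needs high ATP levels and triggers inflammasome assembly, lies 16111 bases before P2rx4 on chromosome 5. No comparison called it, in any setting tried. Its levels were 39.5 to 62.5 CPM in untreated cells, 34.8 to 52.5 CPM in aSyn-treated cells, 26.6 to 69 CPM in donors (median 42.9) and 27.2 to 74.3 CPM in acceptors (median 50.6). The aSyn-treated value was below the untreated one in 4 of 4 experiments, with a log2 fold change of -0.33 (standard error 0.27, edgeR adjusted p = 0.577, with the block 0.107). Donors were above acceptors in 8 of 21 same-numbered pairs and below in 13, with fold changes between -0.19 and -0.09 on the log2 scale over the 6 times. Most of its variance, 61.2%, lay between experiments and 14.9% between groups.

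P2ry2, a receptor for ATP and UTP that takes part in phagocyte recruitment, was at 8.58, 7.37, 10.2 and 7.31 CPM in untreated cells and at 10.7, 11.1, 11.1 and 15.4 CPM in aSyn-treated cells. The 4 treated units were all above the 4 untreated ones. The log2 fold change of 0.53 (SE 0.32) did not pass (edgeR adjusted p = 0.413, with the block 0.128). Donors exceeded acceptors in 18 of 21 pairs, by a median log2 difference of 0.41, and no time was called in either fit. In experiment 4 the donors reached 13.2 to 21.8 CPM, above all donors of the other 3 experiments, which were at 4.05 to 12.6 CPM.

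P2ry6, the UDP receptor linked to microglial phagocytosis, was called in no comparison. It lay between 97.4 and 150 CPM in untreated cells, 85.9 and 150 CPM in aSyn-treated cells, 87.5 and 168 CPM in donors and 63.3 and 148 CPM in acceptors. Its log2 fold change under aSyn was -0.11 (standard error 0.23, edgeR adjusted p = 0.852), and 62.6% of its variance lay between experiments, with the donor means at 154, 133, 110 and 92.3 CPM in experiments 1 to 4. The gene is 21918 bases from P2ry2 on chromosome 7.

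P2ry14, the receptor for UDP-glucose and other UDP-sugars, was at 3.43, 28.6, 4.29 and 2.00 CPM in untreated cells and 8.84, 15.6, 7.32 and 2.97 CPM in aSyn-treated cells. Experiment 2 was highest in both groups, and 3 of 4 experiments were higher with aSyn. The sign of the fold change depends on the block: -0.15 (SE 0.79) without it and 0.24 (SE 0.42) with it, neither called (edgeR adjusted p = 0.95 and 0.733). Donors were above acceptors in 18 of 21 pairs, and the median log2 difference by experiment was 2.00, 0.12, 0.80 and 0.55. The blocked value at 15 min was 1.17 (SE 0.44, adjusted p = 0.084), the closest to a call. P2ry14 overlaps Med12l on the opposite strand, whose level was 0 to 2.96 CPM.

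**Figure D3:**
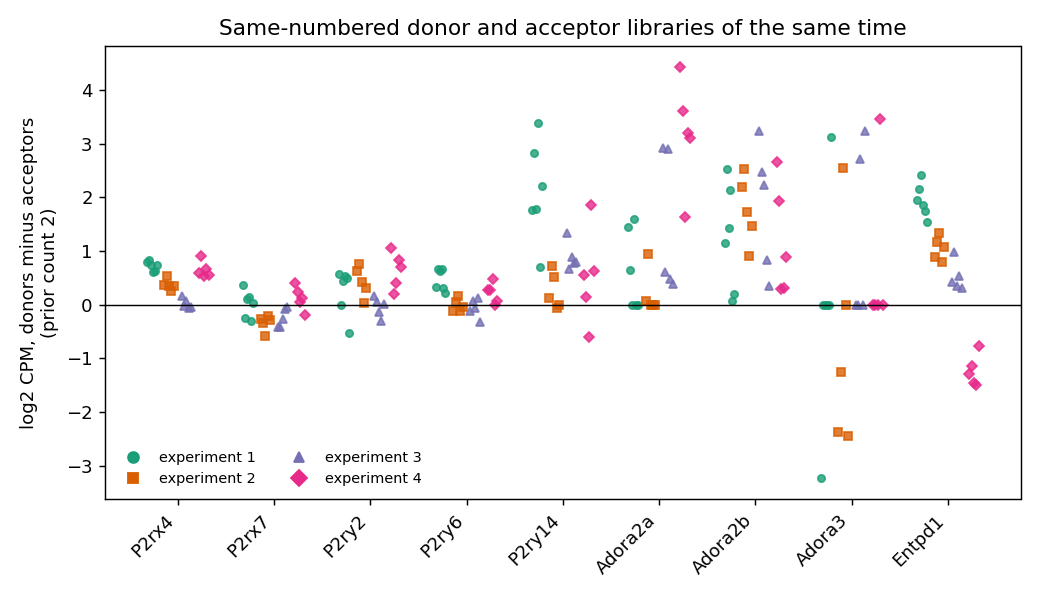
Difference in log2 CPM (prior count 2) between donors and acceptors of the same experiment and time, 21 pairs per member; colours and shapes mark the experiments, and the line at 0 means equal levels. Adora2b is above 0 in all 21 pairs, P2rx4 in 18, and Entpd1 is above 0 in experiments 1 to 3 and below 0 in experiment 4.

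Entpd1, which encodes CD39, the ectoenzyme that turns ATP and ADP into AMP, went in opposite directions in different experiments. aSyn-treated cells were at 74.3, 51.0, 37.5 and 9.60 CPM in experiments 1 to 4 and untreated cells at 36.8, 39.6, 27.4 and 44.9 CPM. Treated cells were thus above untreated ones in experiments 1 to 3 and below in experiment 4. The log2 fold change over all 4 was 0.21 (standard error 0.51, edgeR adjusted p = 0.878). Without experiment 4 it was 0.66 (adjusted p = 0.408), and 0.61 with the block (adjusted p = 0.161).

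Donors and acceptors split in the same way. At 15 min the donors were at 86.4, 44.4, 41.3 and 13.2 CPM and the acceptors at 19.3, 19.9, 20.8 and 32.3 CPM. Donors were higher at 6 of 6 times in experiment 1, 5 of 5 in experiment 2 and 5 of 5 in experiment 3, and at 0 of 5 in experiment 4, with median log2 differences of 1.90, 1.08, 0.42 and -1.29. With all experiments, no time was called in either fit (edgeR log2 fold change 1.00, SE 0.52, adjusted p = 0.469 at 15 min). Without experiment 4, Entpd1 was called at 15 min (1.53, adjusted p = 0.0274) and 30 min (1.45, adjusted p = 0.0364), where 1.16% and 1.37% of genes were called. With the block as well it was called at 0, 15, 30 and 60 min (log2 fold changes 1.10, 1.46, 1.34 and 1.20, adjusted p 0.00135 to 0.0221), beside 11.1%, 6.66%, 8.58% and 4.5% of genes called. The higher share of Rn45s and the separate library numbers given above are those of experiment 4, and their part in this result was not tested. Of the variance of Entpd1, 58.3% lay neither between groups nor between experiments. Its counts may include reads of 3 genes that overlap it on the same strand (Gm16027, Gm8783 and AC166063.1).

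**Figure D4:**
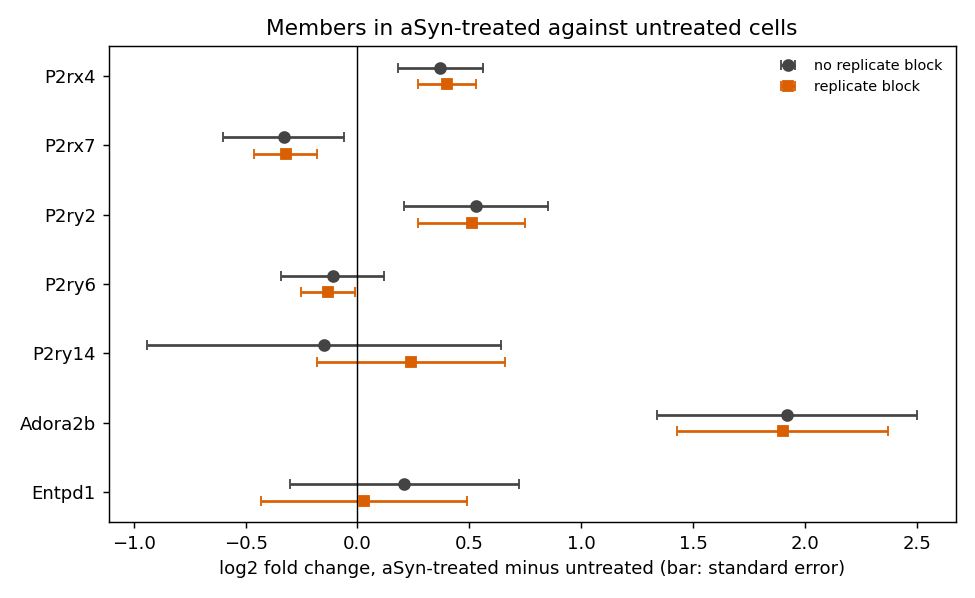
Log2 fold change of 7 members in aSyn-treated against untreated cells (4 units each), with bars of 1 standard error, from the fit without (circles) and with (squares) the experiment number as a block. Adora2b lies farthest from 0, at 1.92 and 1.90, and Adora2a and Adora3, which had no counts in untreated cells, are left out.

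Seen as a list, the members are described by the signs and medians of their fold changes, without a test. In aSyn-treated against untreated cells 6 of 9 fold changes were positive, with a median of 0.37 beside -0.04 over all genes tested. With Adora2a and Adora3 at their lower bounds the median of the members was 0.21. Both genes are among the 6, although Adora2a passed the filter only through cells given aSyn and neither had a count in untreated cells. Where they had counts, they also enter the numbers of the comparisons given next, so these are not read as a trait of the list. In donors against acceptors 7 or 8 members were positive at each time, with medians from 0.29 to 0.84 beside medians from -0.03 to 0.00 over all genes. In donors against aSyn-treated cells the medians were between -0.09 and 0.05, and in acceptors against untreated cells between -0.16 and 0.07. In the order of the 14 group means, no neighbouring groups differed by more than the larger SD of the pair, for any of the 9 members.

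Other genes of the pathway, 35 in number, were followed as a list of further receptors, ectoenzymes, adenosine-handling enzymes, nucleoside transporters and ATP release channels. Of these, 28 were in the count table and 22 could be tested. Without the block 1 was called in 1 of the 19 comparisons: P2ry1, an ADP receptor, was lower in donors than in acceptors at 30 min. The donors were at 0.251, 0, 0.569 and 0 CPM and the acceptors at 2.03, 2.98, 5.03 and 2.27 CPM, which do not overlap, the donors holding 0 to 8 counts. Its log2 fold change was -3.79 (standard error 0.86, edgeR adjusted p = 0.0164, with the block 1.13e-04). The donor mean of 0.205 CPM lies near the 3-count limit, so the size of this fold change is not resolved and only its direction is read. Without the block the call was lost without experiment 1, 2 or 3 (adjusted p = 0.161, 0.123 and 0.056) and among only the groups compared (0.168), and with the block it was kept without any 1 experiment. In aSyn-treated cells P2ry1 was at 0.295, 0.284, 0.954 and 0.524 CPM and in untreated cells at 2.32, 1.22, 3.09 and 1.43 CPM. The aSyn-treated units were all below the untreated ones, with a log2 fold change of -1.95 (SE 0.78, adjusted p = 0.18, with the block 0.0177). This blocked call was lost without experiment 1 (adjusted p = 0.121), 2 (0.0523) or 3 (0.0839).

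With the block, 1 of the 22 pathway genes was called in aSyn-treated against untreated cells, where 19.2% of all genes were called, and it was lower. In donors against acceptors, 1 was higher and 1 lower at 0 min, 2 higher and 2 lower at 15 min, 3 higher and 1 lower at 30 min, and 1, 2 and 1 higher at 60, 150 and 300 min. Of all genes, 4.28%, 9.57%, 10.8%, 6.7%, 5.19% and 1.38% were called at these 6 times. The genes named next were picked after their values were seen. Of their blocked calls, only that of P2ry13 at 150 min was kept in each of the 4 fits without 1 experiment (adjusted p 0.0122 to 0.042), and every other call was lost in at least 1 of them. Panx1, a channel that releases ATP, was higher in donors at 0, 15, 30 and 150 min, with blocked log2 fold changes between 0.65 and 0.80. P2ry13, an ADP receptor of microglia, was higher in donors at 60, 150 and 300 min (blocked log2 fold changes 1.51, 1.70 and 1.74, edgeR adjusted p 0.00337 to 0.014). Pnp, which breaks down inosine and guanosine, was higher at 15 and 30 min (0.94 and 0.92), although it overlaps Pnp2 and Gm49342 on its strand. P2ry12, the ADP receptor of resting microglia, was lower in acceptors than in untreated cells at 0, 30 and 150 min, with blocked log2 fold changes of -1.10, -0.91 and -0.81, and P2ry13 was lower at 150 min (-1.26). Slc28a2, a nucleoside transporter, was at 2.17, 4.85, 3.84 and 43.4 CPM in donors and 0.203, 2.73, 1.9 and 0.729 CPM in acceptors at 30 min, so that experiment 4 stood far above the rest. Its blocked log2 fold change was 2.43 (edgeR adjusted p = 0.0331), and 1.42 without experiment 4 (0.0397). Gja1, which encodes the gap junction protein connexin 43, held 0 or 1 count a library in donors at 15 min, below the 3-count limit, against 4 to 12 counts in acceptors, and no fold change is given. P2ry12 and P2ry13 overlap Med12l on the opposite strand, like P2ry14. CD73, encoded by Nt5e, was listed but did not pass the filter on low counts.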

How the data were processed

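The authors deposited whole-number read counts per gene symbol for the 54 libraries, and the submitters' processing notes name STAR, Partek, DESeq2 and mm10 without versions or roles. The authors also deposited a normalized signal, attributed to DESeq2 per the file headers. Dividing each count by a DESeq2 size factor gave the same number in 100% of values (tolerance 0.05), and the signal served only for that check. Libraries were made by the QuantSeq forward protocol and read as 50 bp single reads, per the labels' protocols. Use of strand in counting is not given in the sources used here.

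Groups came from the group label. The 2 untreated pairs that share a number differed by more than sampling noise but less than other untreated pairs (chi-square per degree of freedom 24.2 to 288 for the latter), and their counts were summed. Counts were tested with edgeR 4.0.16 (TMM, filterByExpr on groups, minimum count 10, quasi-likelihood F test, one spread over 14 groups, R 4.3.3), after tests on simulated data. CPM use TMM-scaled library sizes, and log2 CPM a prior count of 2. Alternatives were DESeq2 1.42.0, RLE scaling, no filter, 54 separate libraries, only the groups compared, the experiment number as a block, and each experiment left out. Leaving out an experiment together with the block was chosen after seeing the data.

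The pairing comes from the replicate numbers in the titles: same-numbered units deviated together, with a mean correlation of 0.339 to 0.593 over the comparisons and a lowest single value of 0.199. The labels give passage 3 for experiment 1, passage 1 for experiment 2 and passage 2 for the other two. All members are named, and P2ry1 of the pathway list is named because it was called without the block. The other pathway genes named were called only with the block and were picked after their values were seen. Members, rules and lists were chosen with earlier results of these data known. Positions are those of GENCODE on GRCm38, to which mm10 corresponds.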

Additional observations from a re-analysis of the deposited data

Results flagged for a closer look

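In 13 of 83 groups of 4 units, the highest library stood apart from the other 3 by Dixon's criterion. For normally distributed values chance flags about 1 group in 20. That rate does not hold for Adora2a and Adora3, whose levels lie near 0. Where 3 libraries are at 0, the criterion is met whatever the remaining value, so 13 is not read as an excess over chance. Adora2a accounts for 4 of them, all in experiment 4: 4.02 CPM in aSyn-treated cells (next highest 0.0795), 3.17 CPM in donors at 15 min (next 0.141), 4.89 CPM in donors at 150 min (next 0.481) and 4.94 CPM in donors at 300 min (next 0.356). Experiment 4 was also apart for P2ry2 in aSyn-treated cells (15.4 CPM, next 11.1) and in donors at 150 min (21.8 CPM, next 10.4), and for Entpd1 in acceptors at 15 min (32.3 CPM, next 20.8). Experiment 3 was apart for P2ry2 in acceptors at 15 min (12.3 CPM, next 7.70) and for Adora2b in acceptors at 60 min (4.84 CPM, next 1.76). Experiment 2 was apart for P2rx4 in donors at 300 min (293 CPM, next 236.2), for P2ry14 in untreated cells (28.6 CPM, next 4.29), and for Adora3 in donors (0.563 CPM) and acceptors (1.55 CPM) at 15 min, where the other 3 libraries had no counts.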

How the results depend on the processing

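Without the block, RLE scaling and no filter on low counts gave the same numbers of member calls as the tests reported. The replicate block gave 3 member calls in aSyn-treated against untreated cells in place of 0 (19.2% of all genes called). It gave 1 in acceptors against untreated cells in place of 0 (2.71%) and 7 in donors against acceptors in place of 1 (6.31%). In acceptors over time it gave 1 in place of 0 (0.137%), and it changed no other number of calls. DESeq2 gave 1, 0, 3 and 1 in those 4 families, where 4.5%, 0.275%, 0.883% and 0.258% of all gene tests were called. Taking 54 separate libraries gave 1 call under aSyn (4.67% of all genes called), and fitting only the groups compared gave 0 in donors against acceptors. Leaving out 1 experiment gave 0 to 4 calls in donors against acceptors and 0 in the other families. The 4 calls, 7.41% of member tests, came without experiment 4, where 0.873% of all gene tests were called. Without experiment 1, 2 or 3 there were 0 calls, beside 0.1% to 0.165% of all gene tests. Leaving out an experiment with the block as well was an alternative chosen after seeing the data. Without experiments 1 to 4 in turn it gave 4, 5, 7 and 10 calls in donors against acceptors. These were 7.41%, 9.26%, 13% and 18.5% of member tests, against 2.95%, 2.8%, 3.21% and 5.87% over all genes. Under aSyn it gave 1 to 3 calls, where 10.5% to 15.8% of all genes were called. In acceptors against untreated cells it gave 0 to 1 (0.555% to 2.57% of all gene tests), and 0 over time. Adora2a, which passed the filter only through cells given aSyn, accounts for 3 of the blocked calls with all experiments and for 2, 3, 2 and 0 without experiments 1 to 4. Entpd1 changed sign without experiment 1: to -0.17 under aSyn (-0.32 with the block), to -0.17 at 60 min (-0.22) and to -0.02 at 150 min (-0.15) in donors against acceptors. Without experiment 4 these 3 values were 0.66, 1.34 and 1.03. With the block it was also -0.11 under aSyn without experiment 2 and -0.08 without experiment 3. The cause of these changes was not tested. Adora2a could not be fitted among only the groups compared. Adora2a, Adora3 and the Adora2b level of acceptors rest on so few counts that differences of 1 to 3 counts a library are not resolved.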
